A study of Mus musculus with 45 samples.

Results

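Anti-IgM on OP9-DL1 stroma from 44 to 68 h is a comparison of 3 libraries at 68 h with 3 libraries at 44 h, over all genes. These 6 libraries, of 45 in the series, were chosen by their labels alone. Each holds polyA RNA of follicular B cells from the spleens of B6.Blimp1GFP/+ mice, which carry GFP in 1 copy of Blimp1 (Prdm1), the gene for a driver of plasma cell formation. The cells lay on OP9-DL1, a bone marrow stromal line that carries the Notch ligand Delta-like 1, received anti-IgM F(ab)'2 at 10 µg/mL and were sorted for viability. Blimp1GFP/+, the DL1 monolayer and anti-IgM are thus shared by the 68 h and the 44 h group, which differ in their labels by time alone. The 3 libraries of the same culture at 20 h give the earlier level of each gene. For comparison, 6 libraries came from B cells with anti-IgM on OP9 without the ligand at 68 and 44 h, and 6 from B cells with lipopolysaccharide (LPS, a TLR4 ligand, at 10 µg/mL) on OP9-DL1 at 68 and 44 h. The labels do not say whether replicates are separate animals or cultures, so each p measures the spread between these libraries, which may be technical.

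Anti-IgM binds the B cell receptor, which consists of surface immunoglobulin and the signalling chains CD79A and CD79B. Crosslinking brings a resting follicular B cell into growth: Myc rises, nucleolar and chaperone genes follow, and the cell enters division. A resting B cell is marked by receptors for homing and by inhibitory receptors that dampen receptor signals. Delta-like 1 signals through NOTCH2, whose targets include Dtx1 and Hes1 in splenic B cells.

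The 6 libraries held between 3.56 and 16.3 M estimated reads (M for 1e+06), of which the 44 h replicate 2 had the fewest and the 44 h replicate 3 the most. Pearson correlations of log2 values were between 0.955 and 0.968 within 68 h, between 0.958 and 0.972 within 44 h, and between 0.931 and 0.965 across the 2 times. In the series, 10 libraries stand apart from their group, and none of these is among the 9 of anti-IgM on OP9-DL1. The cells carried the markers of B cells: the 12 defining markers summed to between 38000 and 39700 scaled TPM at 68 h and between 19900 and 21600 at 44 h. Scaled TPM are transcripts per 1e+06 divided by a size factor per library, a measure of relative abundance per transcript length. RNA from a culture cannot tell fewer cells of a kind from less RNA per cell.

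Most tested genes of antibody constant regions and of MHC class II presentation were higher at 68 h than at 44 h, and most of the ribosome biogenesis and heat shock lists were lower. Of 11777 genes tested, 675 were higher at 68 h (5.73%) and 643 lower (5.46%), at an adjusted p below 0.05 in limma. The median log2 change of all genes was -0.009. On TPM as deposited, without scaling, 493 were higher and 957 lower, so that 34% of calls were higher in place of 51.2%. The calls rest on the spread among the 9 libraries of anti-IgM on OP9-DL1. When the spread was pooled over all 45 libraries, the libraries that stand apart included, 20 genes were higher and 8 lower. With those 10 libraries left out, 287 genes were higher and 251 lower. Leaving out 1 of the 6 libraries gave between 343 and 416 higher and between 275 and 417 lower.

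**Figure D1:**
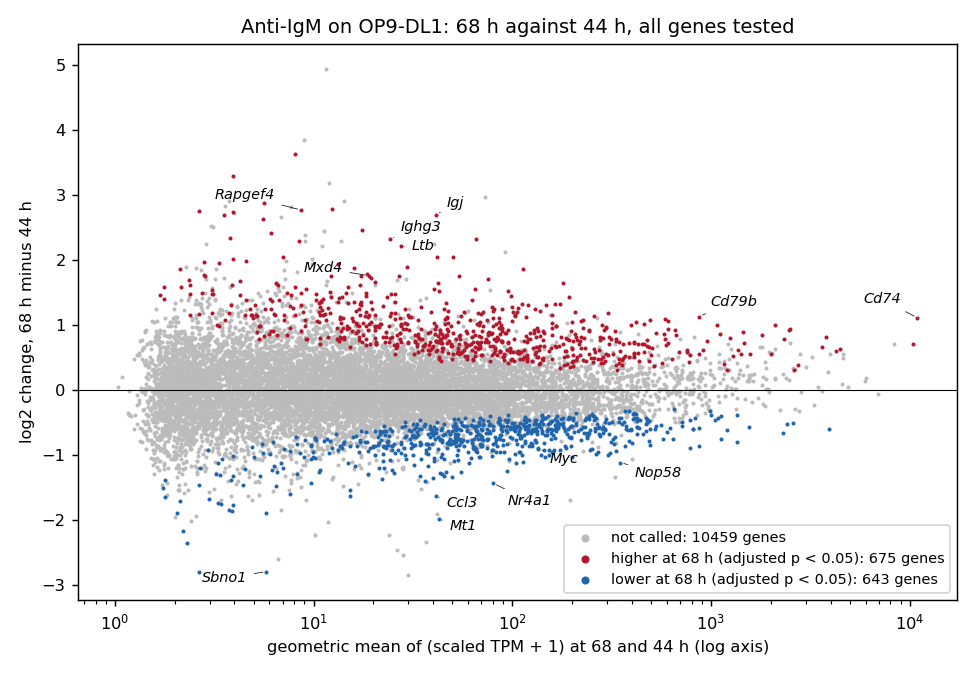
Each point is a gene tested with anti-IgM on OP9-DL1. The horizontal log axis gives the geometric mean of scaled TPM + 1 at 68 and 44 h, and the vertical axis the log2 change, 68 h minus 44 h. Red points are the 675 genes higher at 68 h and blue points the 643 lower. Igj lies at 2.70 and Nop58 at -1.12.

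Gene lists were read by how many of their tested members passed. The antibody constant region list had 6 of 9 members higher and 0 lower, the MHC class II list 11 of 15 higher and 0 lower, and the 12 defining B cell markers 10 higher and 0 lower. Ribosome biogenesis had 33 of 38 members lower and 0 higher, and the heat shock list 17 of 22 lower and 0 higher. Pooling the spread over all 45 libraries left between 0 and 2 called members in each of the 14 lists followed across settings. Their counts are given below with a range over the 6 fits that each leave out 1 library, except for the defining B cell markers. For these markers the range was 8 to 9 members, and 1 was called in the 35 libraries without those that stand apart.

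**Figure D2:**
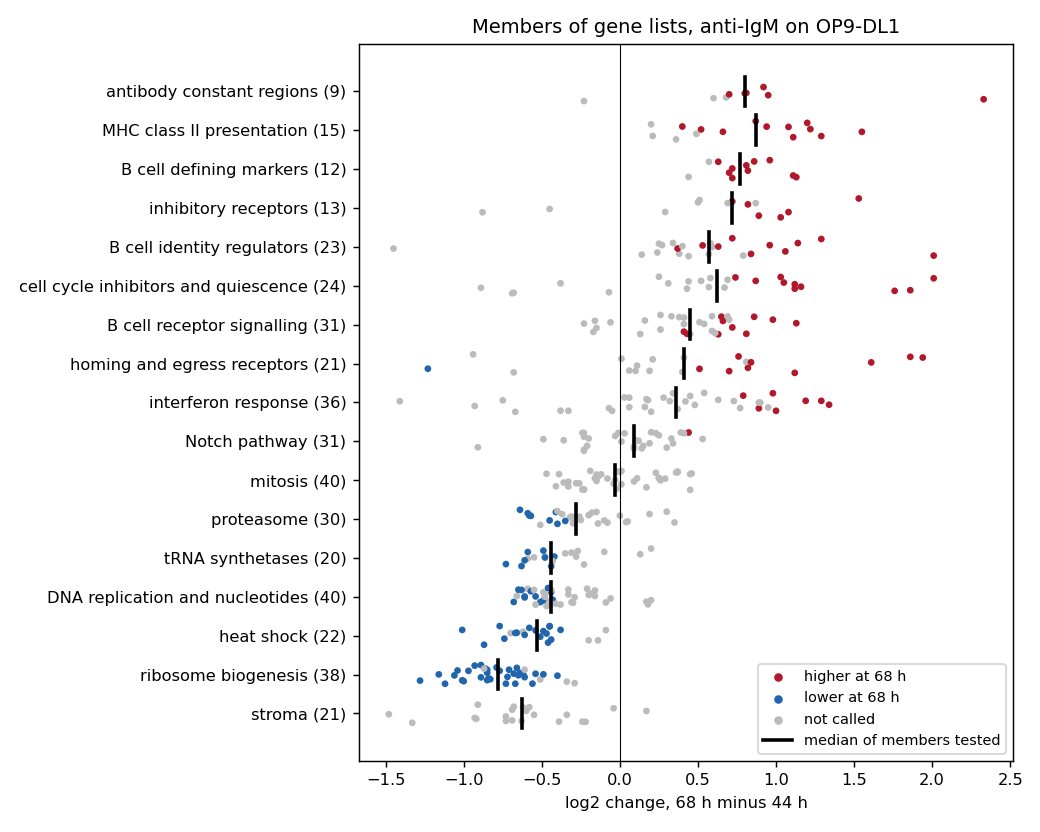
Each point is a tested member of a gene list, with the number tested in brackets, and the horizontal axis is the log2 change, 68 h minus 44 h. Red members were higher at 68 h, blue lower and grey not called, and black bars mark list medians, from 0.87 for MHC class II to -0.78 for ribosome biogenesis.

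Antibody genes were among the largest increases. Igj (Jchain in current nomenclature, chr5:88519809-88527897, GRCm38.p6), the chain that joins IgM into polymers, had 106, 86.4 and 122 scaled TPM at 68 h and 14.5, 13.7 and 17.4 at 44 h. The groups were far apart, a log2 change of 2.70 (SE 0.20, adjusted p = 0.00032). The 44 h level was a low between 2 higher ones, since the 20 h libraries held 345, 207 and 255 scaled TPM. Ighg3 (chr12:113357442-113361232), the constant region of IgG3, had 52.2, 49.6 and 57.7 scaled TPM at 68 h and 7.97, 9.36 and 12.3 at 44 h, a log2 change of 2.33 (SE 0.19, adjusted p = 0.00035). All 3 of the 68 h libraries lay above all 3 at 44 h. The 20 h mean of Ighg3 was 23.1, above its 44 h mean of 9.88. Igj and Ighg3 were also called when all 45 libraries were fitted.

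The main receptor isotypes rose by less and from a far higher level. Ighm, the IgM heavy chain, had 5110, 5000 and 5000 scaled TPM at 68 h and 2790, 2900 and 2910 at 44 h, a log2 change of 0.81 (adjusted p = 0.00068). Ighd, the IgD heavy chain of mature naive B cells, had 934, 851 and 919 at 68 h and 451, 517 and 460 at 44 h, a log2 change of 0.92 (adjusted p = 0.00091). Replicates were tight and the times did not overlap for either isotype. The light chains Igkc (0.70) and Iglc2 (0.80) rose with them on the log2 scale. Ighg2b rose by 0.95 but kept its call in 1 of the 6 fits that each leave out 1 library. Its 20 h mean of 16.3 scaled TPM was above its means at 44 h (4.4) and 68 h (9.64). Ighg1, the IgG1 constant region, had a log2 change of -0.23 (adjusted p = 0.67), and Ighe was listed at 0 in all 6 libraries. The count of 6 members higher was between 5 and 6 when 1 library was left out. With the 35 libraries without those that stand apart, it was 1. Ighm (adjusted p = 0.19 in limma) and Ighd (0.075) lost their calls there, while Ighg3 kept its call. Constant regions of the IgG isotypes are alike in sequence, and the counting could split reads between them.

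Plasma cell genes moved in part. Of 23 tested members of the plasma cell list, 6 were higher and 1 lower, with a median log2 change of 0.24. Besides Igj, Mzb1, a chaperone of IgM assembly, averaged 653 ± 19.1 scaled TPM at 68 h and 322 ± 21.5 at 44 h (SD, n = 3 each), a log2 change of 1.02. Zbtb20, a transcription factor of plasma cells, had 23.5, 36 and 29 scaled TPM at 68 h and 12.6, 11 and 11.6 at 44 h, a log2 change of 1.25 (adjusted p = 0.0053). The drivers gave no call. Prdm1, Blimp1 itself, had 2.03, 0.821 and 1.48 scaled TPM at 68 h and 1.57, 0.774 and 0.824 at 44 h, which overlap (adjusted p = 0.71). Irf4, needed for plasma cells and for class switching, had a log2 change of -0.36 (adjusted p = 0.17), and Xbp1, which expands the secretory pathway, one of 0.13 (adjusted p = 0.46). In the germinal centre and class switch list, 2 of 18 tested members were higher and 1 lower. Mef2b, a factor of germinal centre B cells, had 161, 179 and 152 scaled TPM at 68 h and 68.7, 61.1 and 74.6 at 44 h, a log2 change of 1.26 (adjusted p = 0.0011).

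**Figure D3:**
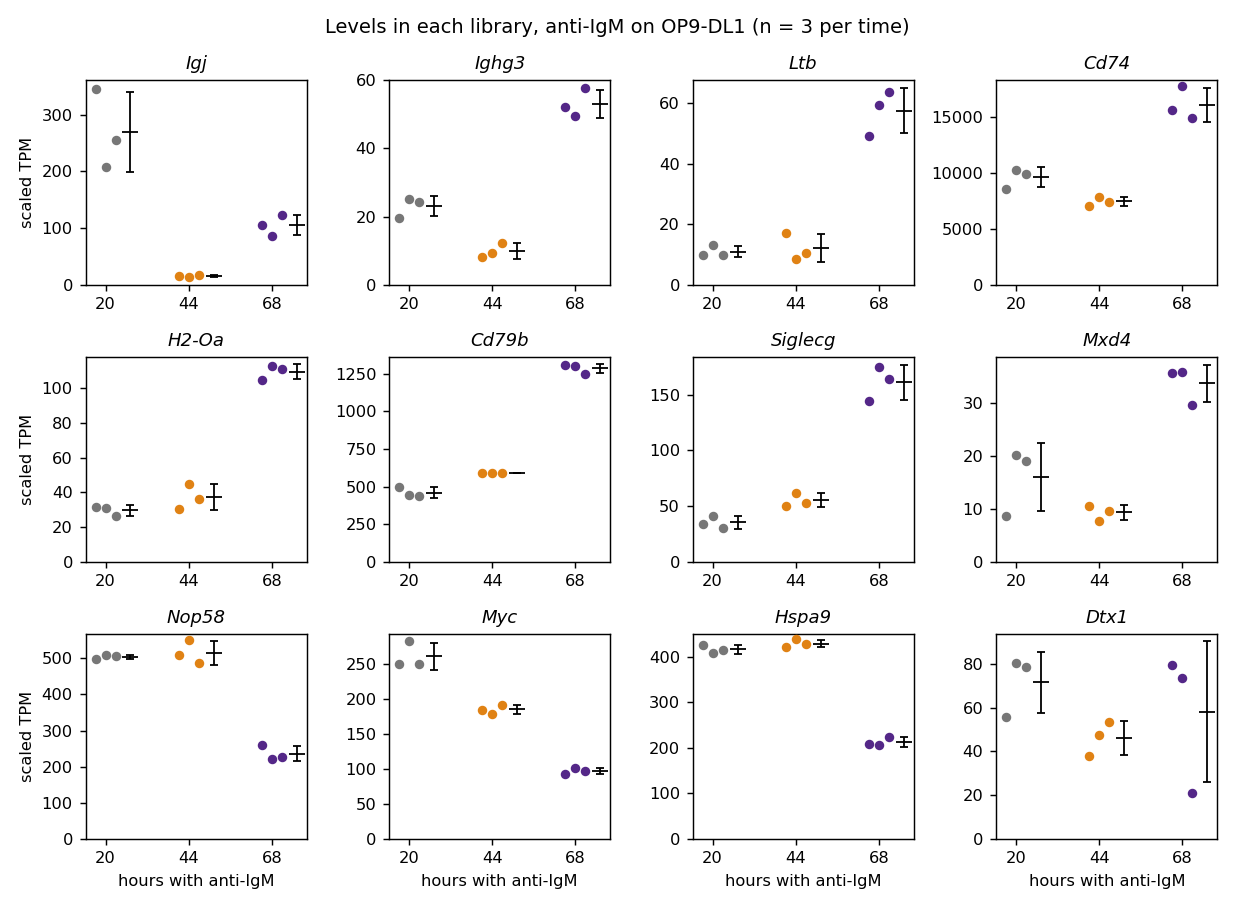
Scaled TPM of 12 genes in each library of anti-IgM on OP9-DL1, with hours on the horizontal axis, 3 points per time and the mean with its SD to the right of them. Igj falls and rises again over the 3 times, Ltb lies between 49.2 and 63.7 at 68 h, Nop58 drops at 68 h to between 221 and 260, and Dtx1 overlaps between 68 and 44 h.

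Most MHC class II genes rose. MHC class II molecules carry peptides from endocytosed antigen to helper T cells. All 15 list members had a higher mean at 68 h, 11 passed the test, and the median log2 change was 0.87. Leaving out 1 library gave 8 to 9 members, and the 35 libraries without those that stand apart gave 4. Promoters of these genes hold an X and a Y box, and the Y box core is GATTGG or its reverse complement CCAATC. In the 250 bases before a listed start, on either strand, 8 of the 11 list members with a RefSeq promoter held it (72.7%), against 16.6% of all 27025 genes with a promoter and 23.1% of the 8206 tested among them. A gene with several listed starts counted where any held it. For 5 of the 6 of these that rose, 50 bases around the match nearest to the start are printed in gene orientation from RefSeq GRCm38.p6, with the match in capitals, since the shared letters are what these promoters have in common.
H2-Aa, chr17:34287857-34287906, minus strand: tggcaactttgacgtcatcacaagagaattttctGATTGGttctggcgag
H2-DMb2, chr17:34145124-34145173, plus strand: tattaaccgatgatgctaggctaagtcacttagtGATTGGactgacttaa
H2-Eb1, chr17:34305798-34305847, plus strand: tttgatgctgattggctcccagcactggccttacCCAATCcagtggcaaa
H2-Oa, chr17:34092301-34092350, plus strand: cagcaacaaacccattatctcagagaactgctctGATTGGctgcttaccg
H2-Ob, chr17:34238813-34238862, plus strand: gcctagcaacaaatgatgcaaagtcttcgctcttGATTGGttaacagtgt
The match began 44 bases before the start in H2-Oa, 58 in H2-Ob, 49 in H2-Aa and 35 in H2-Eb1, and farther up in H2-DMb2 (91). H2-Eb1 held 2 matches. The one in capitals is the reverse complement, and a gattgg farther from the start stands in lower case in the same printed stretch. Which of the 2 serves as the Y box was not tested. H2-DMa has 2 listed starts, and its match stood before one that lies inside the annotated gene, so it is not printed. A match describes letters only: H2-DMb1 and H2-Eb2 also hold one and were not called, with log2 changes of 0.36 and 0.21.

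Among the genes with these promoters, H2-Oa and H2-Ob, which encode the H2-O chains that restrain peptide exchange, changed most. H2-Oa had 105, 113 and 111 scaled TPM at 68 h and 30.2, 45.1 and 36.1 at 44 h, a log2 change of 1.55 (SE 0.16, adjusted p = 0.00084). H2-Ob had 190, 221 and 217 at 68 h and 78, 99.3 and 91.7 at 44 h, a log2 change of 1.22 (adjusted p = 0.00091). Every 68 h library of both was above every 44 h library. H2-DMa, a chain of the catalyst of peptide exchange, had 296, 349 and 289 scaled TPM at 68 h and 130, 127 and 147 at 44 h, a log2 change of 1.20 (adjusted p = 0.0012). H2-DMb2 rose by 1.08 on the log2 scale, although it and H2-DMb1 are near copies whose reads the counting may have split.

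The invariant chain and the presenting chains were the most abundant of the list. Cd74, the invariant chain, had 15600, 17800 and 14900 scaled TPM at 68 h and 7050, 7880 and 7400 at 44 h, a log2 change of 1.11 (SE 0.10, adjusted p = 0.00067). H2-Eb1 averaged 844 ± 85.7 at 68 h and 439 ± 13.6 at 44 h, and H2-Ab1 4540 ± 334 at 68 h and 2880 ± 227 at 44 h (SD, n = 3 each). H2-Aa rose by 0.52, the least of the presenting chains called. H2-Aa, H2-Ab1 and H2-Eb1 encode chains of the surface dimers. At 20 h, H2-Aa had averaged 1830 scaled TPM and Cd74 9620, above their 44 h means. Ciita, the transactivator of MHC class II genes, had 31.8, 37 and 33.1 at 68 h and 12.6, 16 and 11.5 at 44 h, a log2 change of 1.29 (adjusted p = 0.0085).

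Both signalling chains of the B cell receptor and several receptors that restrain it rose. Cd79b (chr11:106311341-106314562), a signalling chain of the receptor, had 1310, 1300 and 1250 scaled TPM at 68 h and 588, 589 and 591 at 44 h. The gap was many times the spread within either time, with a log2 change of 1.13 (SE 0.09, adjusted p = 0.00035). Its partner Cd79a had 1550, 1420 and 1520 at 68 h and 781, 832 and 856 at 44 h, a log2 change of 0.86 (adjusted p = 0.00076). In the receptor signalling list 10 of 31 members were higher and 0 lower (4 to 7 with 1 library left out, 1 with 35 libraries). They include Blk, a Src family kinase (0.72 on the log2 scale), the tyrosine kinase Syk (0.65) and the adaptor Bank1 (0.98). They also include enzymes that end signals, Ptpn6 (0.43), which encodes the phosphatase SHP-1, and Inpp5d (0.81), which encodes SHIP1 and kept its call in 3 of 6 fits.

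Of 13 inhibitory receptors 6 were higher and 0 lower, with a median log2 change of 0.72. When 1 library was left out 5 to 6 members were called, and with 35 libraries 3. Siglecg (chr7:43408192-43418349), a sialic acid receptor that dampens calcium signals in B cells, had 144, 175 and 164 scaled TPM at 68 h and 50, 62.1 and 53 at 44 h. The times were well separated, with a log2 change of 1.53 (SE 0.15, adjusted p = 0.00068). Fcgr2b, the inhibitory Fc receptor of B cells, had 215, 232 and 224 at 68 h and 85.8, 115 and 132 at 44 h, a log2 change of 1.03 (adjusted p = 0.0025). Pecam1 (1.08), Cd22 (0.82), Cd72 (0.72) and Ceacam1 (0.89, call kept in 3 of 6 fits) carry inhibitory motifs in their tails and also rose.

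Some genes of B cell identity and of quiescence were higher at 68 h. In the identity list 10 of 23 members were higher and 0 lower (6 to 8 with 1 library left out, 1 with 35 libraries). Spib, an ETS factor of B cells, had 302, 349 and 305 scaled TPM at 68 h and 133, 164 and 160 at 44 h, a log2 change of 1.06 (adjusted p = 0.0032). Pou2f2, which encodes OCT2, had 68.2, 103 and 72.3 at 68 h and 41.3, 32.1 and 34.6 at 44 h, a log2 change of 1.14 (adjusted p = 0.0064). Both separated the times completely. Pax5, the factor that maintains B cell identity, had 20, 20 and 16.3 at 68 h and 13.5, 9.47 and 14.3 at 44 h, and its log2 change of 0.57 missed the threshold (adjusted p = 0.12). Bach2, which opposes Blimp1, overlapped between the times, with a log2 change of 0.24 (adjusted p = 0.43).

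Among the list of cell cycle inhibitors and quiescence genes, 10 of 24 were higher and 0 lower (8 to 10 with 1 library left out, 8 with 35 libraries). Mxd4 (chr5:34176580-34187710), whose product competes with MYC for MAX, had 35.6, 35.8 and 29.6 scaled TPM at 68 h and 10.6, 7.69 and 9.59 at 44 h, a log2 change of 1.76 (SE 0.29, adjusted p = 0.0048). Klf2, a factor of lymphocyte quiescence and trafficking, had 8.63, 7.75 and 4.65 at 68 h and 1.01, 1.02 and 0.815 at 44 h. It was near the filter at 44 h and rose by 2.01 (adjusted p = 0.0028). Tsc22d3, a glucocorticoid-induced gene, had 29.2, 32.3 and 27.1 at 68 h and 12.2, 13.8 and 11.9 at 44 h, a log2 change of 1.16 (adjusted p = 0.0064). Ccng2 (1.05), Txnip (1.12), Btg2 (0.87) and Cdkn2d (0.74), known as brakes on growth or the cell cycle, rose as well. Cdkn1b, which encodes the inhibitor p27, had separated values and a log2 change of 0.69 that missed the threshold (adjusted p = 0.068), and Cdkn1a, which encodes p21, overlapped (log2 change -0.68, adjusted p = 0.13).

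Homing and egress receptors changed with them: 9 of 21 were higher and 1 lower (5 to 7 higher with 1 library left out, 4 with 35 libraries). S1pr1 (1.12) and S1pr4 (1.94), receptors for sphingosine 1-phosphate, rose, while S1pr3, a receptor of marginal zone B cells, had 7.05, 4.83 and 6.37 scaled TPM at 68 h and 18, 13 and 15.6 at 44 h, a fall of 1.23 on the log2 scale (adjusted p = 0.0084). Cxcr5, the receptor that leads B cells into follicles, averaged 72.3 ± 2.13 at 68 h and 40.1 ± 5.42 at 44 h (SD, n = 3 each), a log2 change of 0.84. Itgb7, an integrin chain of gut homing, had 11, 9.62 and 10.9 at 68 h and 3.18, 2.41 and 2.77 at 44 h, a log2 change of 1.61 (adjusted p = 0.0031). Fcer2a, the CD23 gene of follicular B cells, had a log2 change of 0.73 that missed the threshold (adjusted p = 0.086).

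Myc and most genes of ribosome biogenesis fell. Myc (chr15:61985341-61990361), the factor that drives biosynthesis after receptor stimulation, had 93.4, 102 and 97.7 scaled TPM at 68 h and 185, 179 and 192 at 44 h, a fall of 0.91 on the log2 scale (SE 0.10, adjusted p = 0.00091). At 20 h it had averaged 261 ± 19.5, so its level was lower at each later time. In the ribosome biogenesis list every one of the 38 tested members had a lower mean at 68 h, 33 passed the test, and the median log2 change was -0.78. Leaving out 1 library gave 20 to 28 members, the 35 libraries 23 and all 45 libraries 1. Nop58 (chr1:59684961-59711510), a core protein of the snoRNPs that methylate ribosomal RNA, had 260, 221 and 228 scaled TPM at 68 h and 508, 551 and 486 at 44 h. The times did not overlap, and it fell by 1.12 on the log2 scale (SE 0.10, adjusted p = 0.00043).

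Other steps of ribosome assembly moved likewise. Polr1b (chr2:129100970-129128060), a subunit of the polymerase of ribosomal RNA, had 23, 20.2 and 18.1 scaled TPM at 68 h and 52.4, 44.1 and 44.2 at 44 h, a log2 change of -1.16 (adjusted p = 0.0067). Gnl3, nucleostemin, had 65.6, 59.8 and 71.1 at 68 h and 136, 149 and 127 at 44 h, a log2 change of -1.06 (adjusted p = 0.0015). The 68 h levels of both were under those of every 44 h library. Nop56, the partner of NOP58, averaged 574 ± 15.1 at 68 h and 1060 ± 98.5 at 44 h, and nucleolin (Ncl) 360 ± 62.3 at 68 h and 572 ± 40 at 44 h (SD, n = 3 each). Rrs1 gave the largest fall of the list, 1.28 on the log2 scale, but its call was kept in 2 of 6 fits. The E-box CACGTG, which MYC and MAX can bind, stood in the 250 bases before the start of 1 of the 34 list members with a promoter (2.94%), against 10.3% of genes tested, 13.3% of all genes called lower and 8.52% of those called higher. Only these exact letters in these bases were searched, and binding was not tested.

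Genes of chaperones and aminoacyl-tRNA synthetases fell too. Of 22 heat shock genes 17 were lower and 0 higher, with a median log2 change of -0.53 (8 to 13 with 1 library left out, 8 with 35 libraries). Hspa9, mitochondrial HSP70, had 208, 206 and 225 scaled TPM at 68 h and 422, 439 and 428 at 44 h, a log2 change of -1.01 (SE 0.09, adjusted p = 0.00038). Hspd1, the mitochondrial chaperonin HSP60, had 250, 259 and 303 at 68 h and 484, 498 and 504 at 44 h, a log2 change of -0.87 (adjusted p = 0.0021). Each was near its 20 h mean at 44 h, which was 417 for Hspa9 and 534 for Hspd1. Of 20 cytoplasmic tRNA synthetases 8 were lower and 0 higher (3 to 7 with 1 library left out, 2 with 35 libraries), led by Rars, for arginine, at -0.73. Of 30 proteasome genes 8 were lower and 0 higher (2 to 4 with 1 library left out, 4 with 35 libraries). Psmd7 of the regulatory lid stood at -0.59, and the list median at -0.28.

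Metabolic and secretory lists had few calls. Shmt1, of one-carbon metabolism, had 110, 99.4 and 93.2 scaled TPM at 68 h and 225, 200 and 201 at 44 h, a log2 change of -1.04 (adjusted p = 0.0016). Mthfd2, an enzyme of mitochondrial folate metabolism, fell by 0.62, and 3 members of the ATF4 and amino acid list of 27 were lower and 1 higher. Nampt, the rate-limiting enzyme of NAD salvage, had 26.4, 21.6 and 23.9 at 68 h and 66.9, 60.1 and 61.2 at 44 h, a log2 change of -1.36 (SE 0.14, adjusted p = 0.00091). Of 34 glycolysis and hypoxia genes 4 were higher and 2 lower; among them Bnip3l, a mitophagy receptor, had 228, 209 and 219 at 68 h and 93.2, 133 and 116 at 44 h, a log2 change of 0.95 (adjusted p = 0.0048). Of 39 oxidative phosphorylation genes 1 was higher and 2 were lower, of which Cycs, cytochrome c, fell by 0.70. In the remaining metabolic lists, cholesterol synthesis had 1 of 25 members higher and 2 lower, fatty acid synthesis 1 of 16 higher and 0 lower, and cholesterol efflux 1 of 6 higher and 0 lower. Scd1, which desaturates fatty acids, rose by 0.71. Among 30 genes of the unfolded protein response 2 were higher and 1 lower, and among 30 of translocation and glycan transfer 1 was higher and 3 lower. Syvn1, an ubiquitin ligase of the endoplasmic reticulum, rose by 0.85 on the log2 scale (adjusted p = 0.0018).

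Several DNA replication genes fell, while no mitosis gene was called. Of 40 DNA replication and nucleotide genes 12 were lower and 0 higher, with a median log2 change of -0.44. Between 1 and 7 members were called when 1 library was left out, and 1 with 35 libraries. Pcna, the sliding clamp of replication, had 391, 330 and 418 scaled TPM at 68 h and 610, 572 and 579 at 44 h, a log2 change of -0.63 (adjusted p = 0.0075). Mcm6, of the replicative helicase, averaged 305 ± 6.28 at 68 h and 431 ± 25.1 at 44 h, and Rrm2, of ribonucleotide reductase, 346 ± 23.6 at 68 h and 513 ± 8.56 at 44 h (SD, n = 3 each). Of 40 mitosis genes 0 were called by limma in either direction, 8 had an unadjusted p below 0.05, and the median log2 change was -0.03. Mki67, a marker of cycling cells, had 52, 44.4 and 47.4 at 68 h and 41.4, 32.9 and 30.6 at 44 h, a log2 change of 0.45 that missed the threshold (adjusted p = 0.13). Its 20 h mean was 16.2 ± 3.02. The mitotic kinases Plk1 (-0.03) and Aurkb (-0.02) overlapped between 68 and 44 h. Of 16 G1 cyclins and kinases 1 was higher and 3 lower: E2f2, an E2F factor, had 18.5, 13.3 and 20.4 at 68 h and 6.59, 8.49 and 6.04 at 44 h, a log2 change of 1.19 (adjusted p = 0.009). Ccnd2 (-0.71), Ccnd3 (-0.61) and Cdk4 (-0.43) fell, with calls kept in 2, 1 and 1 of the 6 fits.

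A pair of survival genes moved in opposite directions. Bcl2l1 (chr2:152758732-152833803), the gene of BCL-XL, had 27.8, 29.3 and 28.8 scaled TPM at 68 h and 59.8, 71.9 and 81.8 at 44 h, a log2 change of -1.27 (SE 0.16, adjusted p = 0.0014). Mcl1, another anti-apoptotic gene, had 96.8, 68.1 and 89.2 at 68 h and 56.3, 44.2 and 50.4 at 44 h, a log2 change of 0.73 (adjusted p = 0.016) whose call was kept in 2 of 6 fits. The times did not overlap for either gene. Of the 26 tested genes of the family list 2 were higher and 1 lower, and Bcl2 itself overlapped (0.05). The p53 target list had 2 of 19 members higher and 1 lower, Trp53inp1 (0.85), Sesn1 (0.60) and Aen (-0.68). Each of these lost its call in all 6 fits with a library left out.

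Several genes of activation fell. Nr4a1, an orphan nuclear receptor induced by B cell receptor signalling, had 41.8, 50.8 and 50.5 scaled TPM at 68 h and 124, 147 and 122 at 44 h. It fell by 1.44 on the log2 scale (SE 0.18, adjusted p = 0.0014) from a 20 h mean that was higher still, 211 ± 50.6. The immediate early list as a whole had 1 of 25 members higher and 2 lower. Egr1, another gene of the list, had a log2 change of -0.32 (adjusted p = 0.27). Ccl3, a chemokine made by activated B cells, had 16.9, 19.2 and 32.4 at 68 h and 69.7, 67.8 and 74.2 at 44 h, a log2 change of -1.64 (SE 0.23, adjusted p = 0.0026). Csf1, a macrophage growth factor, had 13, 16.1 and 14 at 68 h and 31.9, 31.6 and 31.8 at 44 h, a log2 change of -1.10 (adjusted p = 0.0061). All 3 of these genes separated the times.

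In the cytokine list of 18, Ltb (chr17:35194507-35196305), the lymphotoxin chain for lymphoid tissue structure, was the member that rose. It had 49.2, 59.3 and 63.7 scaled TPM at 68 h and 17.2, 8.42 and 10.5 at 44 h, a log2 change of 2.21 (SE 0.25, adjusted p = 0.0011). Its 20 h mean of 10.9 ± 1.87 was near that at 44 h. In the NF-kB list 4 of 26 members were lower and 1 higher. Rel, the c-REL subunit, had 39.3, 37.3 and 38.8 at 68 h and 67.4, 69.8 and 65.9 at 44 h, a log2 change of -0.80 (adjusted p = 0.0034). Of 20 costimulation and activation genes 1 was higher and 2 were lower: Cd38 rose by 0.87, Tnfrsf4, the OX40 gene, fell by 1.60, and Tfrc, the transferrin receptor of growing cells, fell by 0.99. Cd86, a costimulatory ligand, and Cd69, an early activation marker, overlapped between the times (log2 changes 0.20 and -0.12).

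Interferon and MHC class I genes rose in part. Of 36 interferon genes 7 were higher and 0 lower, with a median of 0.36. Whichever library was left out 6 were called, and with 35 libraries 4. Irf1, a transcription factor of interferon responses, had 41.3, 32.9 and 38.6 scaled TPM at 68 h and 11.4, 17.7 and 19.5 at 44 h, a log2 change of 1.19 (adjusted p = 0.0065). Irf9, another factor of interferon signalling, averaged 51.6 ± 1.02 at 68 h and 27.5 ± 2.92 at 44 h (SD, n = 3 each), and Gbp2, a guanylate-binding protein, rose by 1.29. The antiviral genes Isg15 (-0.07) and Ifit3 (-0.38) overlapped, so the list did not move whole. In the MHC class I and immunoproteasome list of 18, 6 were higher and 1 lower. The peptide transporters Tap1 (0.83) and Tap2 (0.91) and the immunoproteasome subunit Psmb10 (0.91) rose. In the Toll-like receptor list of 15, Unc93b1 (0.64), the chaperone of endosomal receptors, was higher, as were Ly86 and Irak4, whose calls were each kept in 1 of 6 fits.

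Notch pathway genes gave a single call. Of 31 tested members of the Notch list 1 was higher and 0 lower, 3 had an unadjusted p below 0.05, and the median log2 change was 0.09. The called member was Psen2 (0.44, adjusted p = 0.047), a subunit of gamma-secretase, which lost its call in all 6 fits with a library left out. Dtx1, a Notch target of marginal zone fate, had 79.4, 73.7 and 21.1 scaled TPM at 68 h and 37.9, 47.4 and 53.4 at 44 h (adjusted p = 0.90). The 68 h replicate 3 lay under every 44 h library and the other two above them, and the log2 change of 0.12 became negative when either of those was left out (-0.20 and -0.15). Hes1, another target, had 1.43, 2.54 and 1.53 at 68 h and 2.5, 1.33 and 3.26 at 44 h, against a 20 h mean of 12.7 ± 7.1. Notch2, the receptor, had a log2 change of 0.25 (adjusted p = 0.61). Nrarp was under the filter on low values and was not tested.

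Dll1, the transcript of the ligand itself, was read as a sign of stroma RNA in a sample. It had 4.76, 13.2 and 2.17 TPM as deposited at 68 h and 26.4, 6.17 and 9.4 at 44 h, which overlap. On OP9 without the ligand, the anti-IgM libraries had 3.72, 0.511 and 0.987 at 68 h and 0.677, 0.131 and 0.86 at 44 h. The lowest value on OP9-DL1, 2.17, thus lay within the range on OP9. The stroma marker list summed to between 94.2 and 151 scaled TPM at 68 h and between 168 and 339 at 44 h. Of its 21 tested members 0 were called in either direction by limma, 1 had an unadjusted p below 0.05, the median log2 change was -0.63, and Lum and Dcn were at 0. The sum of the T cell list was between 537 and 593 at 68 h and between 340 and 361 at 44 h. Most of that sum was Lck (390 ± 27.5 at 68 h and 264 ± 20.2 at 44 h) and Cd2 (159 ± 6.49 at 68 h and 68.9 ± 1.75 at 44 h; SD, n = 3 each). Of its 5 tested members 2 were higher and 1 was lower, Trbc2, a T cell receptor constant region, with 1.43, 0 and 1.07 at 68 h and 9.77, 3.67 and 2.86 at 44 h (log2 change -1.76, adjusted p = 0.036, call kept in 1 of 6 fits). Cd3e was at 0 in every 68 h library and at most 0.302 at 44 h, and Trac at most 0.155 in any. The natural killer list summed to between 2.68 and 4.15 at 68 h and between 5.13 and 33.2 at 44 h, with Ncr1, Klrd1 and Gzma at 0. The macrophage list summed to between 38.7 and 41.8 at 68 h and between 27.1 and 33.3 at 44 h, most of it Cd68, with C1qa, Marco and Fcgr1 at 0. The dendritic list summed to between 87.2 and 107 at 68 h and between 71.6 and 89 at 44 h, with Clec9a at 0, the erythroid list to between 5.4 and 11.5 at 68 h and between 3.67 and 16.6 at 44 h, and the neutrophil list to at most 0.296 at 68 h and 0.166 at 44 h. The part of the stroma RNA in the changes above, and in the increases and decreases given below, was not tested.

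The 14 largest increases and 14 largest decreases with a mean of 10 scaled TPM at either time hold genes outside these lists. Rapgef4 (chr2:71981215-72257474), which encodes the cAMP sensor EPAC2, had 17.2, 15.1 and 28.3 scaled TPM at 68 h and 0.243, 4.03 and 3.35 at 44 h, a log2 change of 2.77 (SE 0.51, adjusted p = 0.0084). Cfp, the complement protein properdin, had 98.9, 108 and 92.8 at 68 h and 29.8, 23.9 and 17.9 at 44 h, a log2 change of 2.05 (adjusted p = 0.0011). Mpeg1, which encodes the pore-forming perforin-2, had 11.7, 12.2 and 15.5 at 68 h and 1.93, 1.99 and 3.51 at 44 h, a log2 change of 2.04 (adjusted p = 0.0035). These 3 genes were apart at the 2 times. The other increases were Ptms (2.63), Tcp11l2 (1.89), Gimap3 (1.88), Csprs (1.78) and Tmem191c (1.76), of which Tmem191c kept its call in 1 of 6 fits.

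Among the decreases, Sbno1 had the largest fall, 2.80 on the log2 scale (SE 0.51, adjusted p = 0.0084), with 2.57, 0.00115 and 1.14 scaled TPM at 68 h and 17.1, 18.6 and 6.22 at 44 h. Its replicates were uneven within both times but did not overlap. Mt1, a metallothionein that binds zinc, had 31.8, 9.22 and 23.4 at 68 h and 98.6, 65.8 and 76.8 at 44 h, a log2 change of -1.99 (adjusted p = 0.014) kept in 5 of 6 fits. Axl, a receptor tyrosine kinase, had 9.32, 7.91 and 5.71 at 68 h and 24.4, 23.6 and 28.9 at 44 h, a log2 change of -1.64 (adjusted p = 0.0017). Both were lower in every 68 h library. The remaining decreases outside the lists were Mmp23 (-1.89), Pcp4 (-1.55), Bag2 (-1.43), Cd63 (-1.41), Mdn1 (-1.37), Ptp4a1 (-1.34) and Rangrf (-1.33). Of these, Mmp23, Bag2, Cd63 and Mdn1 kept their calls in 3, 1, 2 and 2 of the 6 fits.

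The change on OP9-DL1 was set against the change in the same hours with anti-IgM on OP9, by a test of the difference between both changes. With all 12 libraries 3 of 12472 genes were called (0.0241%), 2 with a more positive change on OP9-DL1 (0.016%) and 1 with a more negative one (0.00802%). Cd52, a surface glycoprotein of lymphocytes, averaged 3440 scaled TPM at 68 h and 1810 at 44 h on OP9-DL1. On OP9 it had 1300, 1130 and 944 at 68 h and 1960, 1940 and 2310 at 44 h. The means ran in opposite directions, and the changes differed by 1.81 on the log2 scale (SE 0.22, adjusted p = 0.027). The remaining calls were Hist1h2ae (a difference of 3.10) and Sly (-6.22), from families of near-identical copies whose counts are uncertain.

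The OP9 library at 68 h replicate 3 stands apart, with Actb at 29800 TPM against 831 and 952 in the other two. Without it, 354 of 12262 genes had a more positive change on OP9-DL1 (2.89%) and 60 a more negative one (0.489%), and leaving out any of the other 11 libraries gave between 0 and 8 calls in all. In the fit without it, Siglecg had a change on OP9 of 0.39 and a difference of 1.14 (adjusted p = 0.0038). On OP9 it had 233, 217 and, in replicate 3, 63.7 scaled TPM at 68 h and 176, 162 and 173 at 44 h. Mxd4 had 39.7, 54.2 and 56.9 at 68 h and 37.3, 42.7 and 42.8 at 44 h on OP9, and a difference of 1.59 (adjusted p = 0.0071). Nop58, in turn, had 210, 177 and 234 at 68 h and 245, 228 and 245 at 44 h on OP9, with a difference of -0.81 (adjusted p = 0.012). For Mxd4 and Nop58 the 68 h means on the 2 stromas were nearer to each other than the 44 h means, a description without a test. At 44 h Mxd4 averaged 9.33 on OP9-DL1 and 40.9 on OP9, and Nop58 516 on OP9-DL1 and 239 on OP9. Cytosolic ribosomal protein genes gave the most such calls, 58 of 84 with a more positive change on OP9-DL1, followed by 15 of 39 oxidative phosphorylation genes. Of 38 ribosome biogenesis genes 5 had a more negative change on OP9-DL1, and of 12 defining B cell markers 4 a more positive one. Without that library, 540 of the 675 genes higher on OP9-DL1 had a positive change on OP9, and 594 of the 643 lower a negative one. With it the counts were 341 and 506. The median change of all genes on OP9 was -0.017 without that library and -0.034 with it, and the share of all genes in each direction was not counted.

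With LPS on OP9-DL1 the change in the same hours differed from that with anti-IgM for 101 of 12358 genes (0.817%), 73 more positive with anti-IgM (0.591%) and 28 more negative (0.227%). Igj moved in opposite directions. With LPS it had 2.53, 0.621 and 1.87 scaled TPM at 68 h and 23, 23.7 and 25.9 at 44 h, and the difference between the stimuli was 6.01 on the log2 scale (SE 0.40, adjusted p = 0.00014). H2-Ob had 233, 221 and 168 scaled TPM at 68 h and 32.9, 28.6 and 34.7 at 44 h with LPS, where its rise of 2.65 exceeded that with anti-IgM by 1.42 (adjusted p = 0.039). Ighd had 230, 221 and 234 at 68 h and 48, 49 and 46.6 at 44 h with LPS, a rise of 2.23, and a difference of -1.30 (adjusted p = 0.012). All 3 differences held without the LPS library at 68 h replicate 3, which stands apart with Actb at 85300 TPM. So did each of the 101 calls, so this setting does not tell firm calls from weak ones.

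That library sets how many genes are called: without it the count was 791 more positive with anti-IgM (6.52%) and 416 more negative (3.43%) of 12135, and without any of the other 11 between 1 and 62 in all. In the fit without it, 14 of 38 ribosome biogenesis genes had a more positive change with anti-IgM, as had 14 of 40 mitosis genes, 16 of 30 proteasome genes and 19 of 39 oxidative phosphorylation genes. The list medians with LPS were then -1.34 for ribosome biogenesis, -0.59 for mitosis, -0.92 for the proteasome and -0.66 for oxidative phosphorylation. Of 25 cholesterol synthesis genes 10 had a more negative change with anti-IgM, where the list median was -0.11, against 0.62 with LPS. For 15 MHC class II genes the median was 0.87 with anti-IgM and 1.38 with LPS, and 3 differed. Nr4a1 differed by -1.98 (adjusted p = 0.00059), as it had 48.3, 44 and, in replicate 3, 5.08 scaled TPM at 68 h and 29.6, 33.4 and 31.3 at 44 h with LPS. Of the 675 genes higher with anti-IgM 606 also had a positive change with LPS in that fit, and of the 643 lower 591 a negative one. The median change of all genes with LPS was 0.05 there, and the share of all genes in each direction was not counted.

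**Figure D4:**
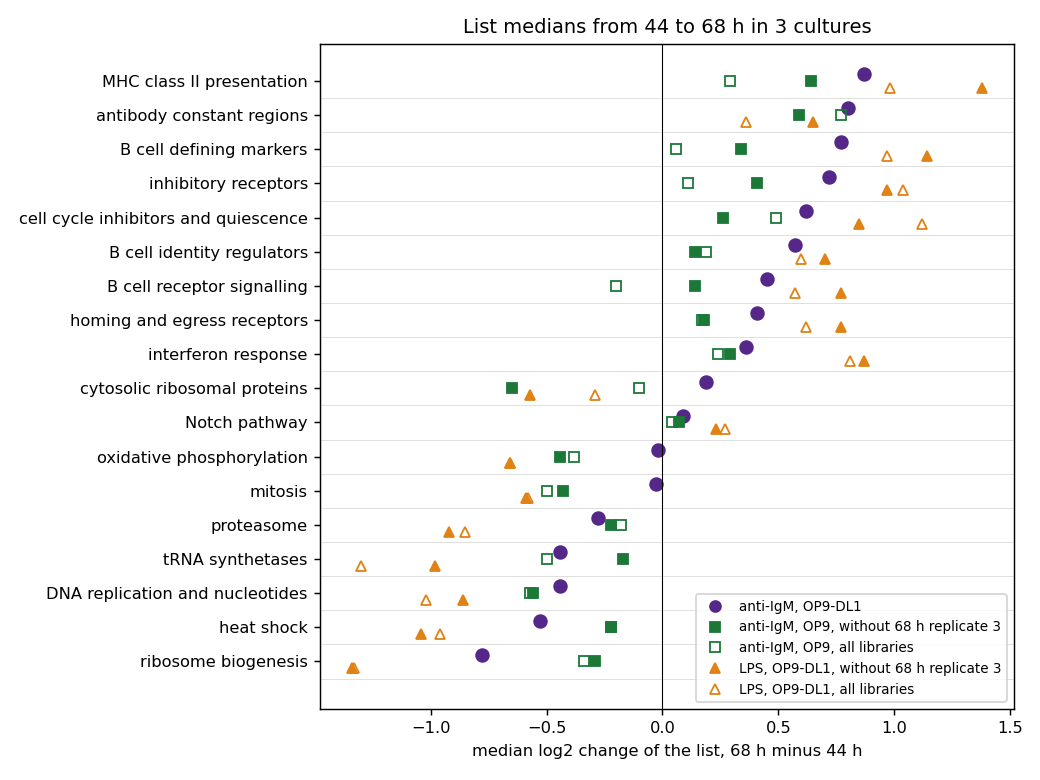
Median log2 change of each gene list from 44 to 68 h on the horizontal axis. Circles are anti-IgM on OP9-DL1, squares anti-IgM on OP9 and triangles LPS on OP9-DL1, and open symbols include the 68 h replicate 3 that stands apart while filled ones leave it out. Ribosome biogenesis lies at -0.78 for anti-IgM on OP9-DL1, -0.29 on OP9 and -1.34 with LPS without those libraries.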

How the data were processed

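The authors deposited TPM per gene symbol and library and a table of log2 values; kallisto and limma are named, without version or role, in the submitters' processing notes, as are the builds GRCm38 and mm10. Per the labels' protocols, a SMART-seq kit gave the cDNA and Nextera XT the libraries. The deposited log2 values gave the estimated read number per library and an alternative. TPM were divided by median-ratio size factors. Genes that reached 1 TPM in 3 or more libraries entered the test, on log2(scaled TPM + 1), which understates changes of low genes, with limma 3.58.1 in R 4.3.3 (group means, mean-variance trend, robust moderation, Benjamini-Hochberg). The 68 h minus 44 h contrast used the 9 libraries of anti-IgM on OP9-DL1, and each difference of changes 12. SE come from the model, SD from 3 libraries. Members and lists were chosen with earlier results of these data known.

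Genes were named by rule: called genes with separated replicates, the 14 highest and the 14 lowest by log2 change, that averaged 10 or more scaled TPM at either time, without antibody variable segments and unnamed models, up to 4 called members of each list with the largest change, and 26 genes always looked at. Those that the results turn on are given, and a few others are not reported here. Further list members are given as examples, chosen after their values were seen. Other settings were unscaled TPM, the authors' log2 values, quantile normalization, a filter at 5 TPM or none, a pseudocount of 0.1, all 45 libraries, 35 libraries (added after seeing the data), the replicate number as a term, only 6 libraries, no immunoglobulin genes, library weights and leaving out each library. Scripts were tested on simulated data. Promoters, 250 bases before each start, and coordinates are from RefSeq GRCm38.p6.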

Additional observations from a re-analysis of the deposited data

Results flagged for a closer look

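Changes from 44 to 68 h that differed between cultures, by a test of the difference itself, are given here with the log2 difference and its value without the 68 h replicate 3 that stands apart. Between OP9-DL1 and OP9 with anti-IgM, Cd52 differed by 1.81 (1.70 without it), Hist1h2ae by 3.10 (2.93) and Sly by -6.22 (-5.61), each with an adjusted p of 0.027 in limma. On OP9, Hist1h2ae had 24.2, 20.1 and 14.7 scaled TPM at 68 h and 94.1, 51.1 and 69.2 at 44 h. Sly, a multicopy gene of the Y chromosome, had 14.9, 10.4 and 63.2 at 68 h on OP9 and 0.302, 0.62 and 0.839 at 44 h.

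Between anti-IgM and LPS on OP9-DL1, Igj differed by 6.01 (6.12 without that library), H2-Ob by -1.42 (-1.57) and Ighd by -1.30 (-1.29). Cycs, cytochrome c, differed by 1.12 (1.10) and fell in both cultures, with 125 scaled TPM at 68 h and 447 at 44 h with LPS. Ndufa2, a subunit of complex I, differed by 1.05 (1.15), with 450 at 68 h and 674 at 44 h with LPS. Psmb10 differed by 1.32 (1.16), with 64.7 at 68 h and 85.1 at 44 h with LPS. Shmt1 differed by 1.05 (0.98), with 66.1 at 68 h and 284 at 44 h with LPS. The adjusted p in limma was near the threshold: 0.049 for Cycs, 0.047 for Ndufa2, 0.048 for Psmb10 and 0.048 for Shmt1. With LPS alone the change of Psmb10 was not called (adjusted p = 0.16). All 101 calls were kept without that library. Leaving out any of the other 11 libraries gave between 1 and 62 calls. No explanation of these differences was tested.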

How the results depend on the processing

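With anti-IgM on OP9-DL1, 675 genes were higher and 643 lower at 68 h. Without a filter there were 418 and 384, with library weights 1022 and 1018, with 35 libraries 287 and 251, and with all 45 libraries 20 and 8. Leaving out 1 library gave 343 to 416 and 275 to 417. The 141 named genes that were called kept their direction in every setting that tested them (137 with a filter at 5 TPM and with immunoglobulin genes removed), 88 were called in each of the 6 fits with 1 library left out, 71 with 35 libraries and 10 with all 45. Genes that were not called and changed sign were Ccl22 (-0.01 on TPM as deposited, and -0.15 to 0.26 with 1 library left out), Cd69 (-0.21 to 0.01) and Dtx1 (-0.20 to 0.73, with -0.15 without the 68 h replicate 2 and -0.01 without the 44 h replicate 1).

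For OP9-DL1 minus OP9, 2 more positive and 1 more negative changes became 0 positive on TPM as deposited and with the authors' log2 values, 7 positive with quantile normalization, 0 and 0 with all 45 libraries (703 at an unadjusted limma p below 0.05), and 0 and 5 with 35. Leaving out 1 library gave 0 to 354 positive and 0 to 60 negative. For anti-IgM minus LPS, 73 and 28 became 2 and 3 on TPM as deposited, 4 and 5 with quantile normalization, 1 and 2 with the authors' log2 values, 7 and 6 without a filter, 5 and 4 with all 45 libraries, 121 positive with a filter at 5 TPM and 48 negative with 35 libraries. Leaving out 1 library gave 1 to 791 and 0 to 416. In these differences the median of all genes moved to 0.289, 0.102 and 0.373 on TPM as deposited, with quantile normalization and with the authors' log2 values for OP9-DL1 minus OP9, and to 0.184 with those log2 values for anti-IgM minus LPS, where all 45 libraries gave -0.107. The cause was not tested.

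Replicate numbers are shared by the groups. Deviations of same-numbered libraries at 68 and 44 h correlated at -0.01, 0.03 and -0.08 with anti-IgM on OP9-DL1. These values show no pairing by number but, with 3 libraries a time, cannot exclude it. With the replicate block 560 genes were higher and 556 lower, 1 and 0 differences were called for OP9-DL1 minus OP9, and 6 and 5 for anti-IgM minus LPS. With 3 libraries a time and as few as 3.56 M reads, small changes of low genes are beyond these data.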

Other observations

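Families defined by gene symbol after the values were seen add to the picture and carry no test of their own. Of 8 GIMAP genes, small GTPases of lymphocyte survival, 6 were higher at 68 h with anti-IgM on OP9-DL1, with a median log2 change of 1.00. Gimap4 had 156, 173 and 199 scaled TPM at 68 h and 58.7, 77 and 72.4 at 44 h, and Gimap7 59.5, 70.5 and 75.8 at 68 h and 27.4, 30.5 and 27 at 44 h. Of 176 tested antibody variable segments 37 were higher and 0 lower, with a median of 0.71. Ribosomal protein genes did not share the fall of the ribosome biogenesis list: of 84 cytosolic ones 4 were higher and 2 lower, with a median of 0.19, while of 74 mitochondrial ones 10 were lower and 0 higher, with a median of -0.16. Of 57 histone genes 3 were higher and 1 lower. In the list of DNA methylation and Polycomb genes, 3 of 20 were lower and 0 higher, among them Bmi1, with 14.5, 11.5 and 7.2 scaled TPM at 68 h and 23.4, 31.8 and 28.8 at 44 h. In the actin and cytoskeleton list 2 of 29 members were higher, Coro1a (0.62) and Myh9 (0.80), and 3 lower.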
